A study of Mus musculus with 12 samples.

Results

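The metabotropic glutamate receptor genes *Grm2*, *Grm3*, *Grm4*, *Grm5*, *Grm6*, *Grm7* and *Grm8* were described by their H4K12ac peaks, as found in ChIP-Seq of sorted hippocampal neuronal nuclei. The members were taken by gene symbol, as a family of receptors, and the family was picked with earlier results of these data known. All 7 were found among the 55413 annotated genes of GENCODE release M21 on GRCm38, and 6 of them had a peak within 2 kb of the transcription start site (TSS) in at least 2 of the 10 peak lists, as 21672 genes in all did. The peaks within 2 kb of the annotated 5′ end (TSS peaks) and those in the remaining gene body were compared between genotypes.

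*Tip60* (*Kat5*) encodes a histone acetyltransferase. The 5 *Tip60* cKO libraries came from mice with floxed *Tip60* alleles and the tamoxifen-inducible *CaMKCreERT2* driver. The 5 control libraries came from littermates that carried the floxed alleles without the driver. Mice of both genotypes received tamoxifen, and nuclei were collected at day 10 after it. The sample labels give male C57BL/6J mice with an age of 3 months, whereas the study describes animals of either sex on C57BL/6N. The *Camk2a* promoter of the driver acts in excitatory forebrain neurons, while the sort took neuronal nuclei of the whole hippocampus, so that nuclei without recombination can be part of the *Tip60* cKO samples. Fewer acetylated nuclei and less acetylation per nucleus cannot be told apart in such bulk libraries. Input chromatin was pooled, with 1 input per genotype behind all peak lists of that genotype, so a difference between the inputs and between the genotypes cannot be told apart at peaks where the background comes from the input. The labels name no animal for a sample, and p-values measure only the spread between these samples.

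Metabotropic glutamate receptors are G protein-coupled receptors that sense synaptic glutamate. *Grm5* belongs to group I, which couples to Gq proteins, phospholipase C and calcium release and sits mainly at the postsynaptic side. Groups II (*Grm2*, *Grm3*) and III (*Grm4*, *Grm6*, *Grm7*, *Grm8*) couple to Gi/o proteins, lower cAMP and in large part act presynaptically as brakes on transmitter release. In the hippocampus mGluR5 is abundant in pyramidal neurons, mGluR3 is also an astrocytic receptor, mGluR7 is found in the active zone, and mGluR6 is known as the receptor of retinal ON bipolar cells. Acetylation of H4K12 is a mark of active chromatin that is found around the start of transcribed genes.

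The sequences just before the start of 5 of the genes are shown since they differ in CpG content, a common feature of acetylated promoters. Peaks of some or all lists overlapped those of *Grm2*, *Grm3*, *Grm7* and *Grm8* (for *Grm8* 2 lists). For *Grm6* peaks of 2 lists lay downstream of the sequence shown. The sequences give the bases before the start. They were taken from the RefSeq promoter table (GRCm38.p6) and are written 5′ to 3′ on the strand of the gene. Each is the 250 bases before the RefSeq start, of which 218 are shown for *Grm8*, as the rest lies within the GENCODE gene. No entry was used for *Grm4* and *Grm5*. Capitals mark the letters GGGCGG of the SP1 box on either strand.
*Grm2* promoter, chr9:106656110-106656359, minus strand: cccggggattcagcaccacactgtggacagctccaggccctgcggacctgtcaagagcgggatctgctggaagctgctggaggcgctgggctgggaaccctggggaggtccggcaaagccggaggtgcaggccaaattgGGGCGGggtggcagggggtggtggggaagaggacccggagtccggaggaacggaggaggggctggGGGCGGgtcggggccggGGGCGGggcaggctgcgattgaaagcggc
*Grm3* promoter, chr5:9725353-9725602, minus strand: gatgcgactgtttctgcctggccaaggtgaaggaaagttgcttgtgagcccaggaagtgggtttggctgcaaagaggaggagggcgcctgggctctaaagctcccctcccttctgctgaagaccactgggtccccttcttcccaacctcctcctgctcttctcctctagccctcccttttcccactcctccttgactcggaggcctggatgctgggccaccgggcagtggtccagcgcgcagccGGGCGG
*Grm6* promoter, chr11:50850435-50850684, plus strand: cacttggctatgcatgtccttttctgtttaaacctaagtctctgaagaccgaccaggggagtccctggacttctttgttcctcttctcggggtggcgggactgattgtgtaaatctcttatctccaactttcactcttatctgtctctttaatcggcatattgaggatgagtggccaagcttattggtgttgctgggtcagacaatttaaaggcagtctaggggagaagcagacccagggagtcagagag
*Grm7* promoter, chr6:110645262-110645511, plus strand: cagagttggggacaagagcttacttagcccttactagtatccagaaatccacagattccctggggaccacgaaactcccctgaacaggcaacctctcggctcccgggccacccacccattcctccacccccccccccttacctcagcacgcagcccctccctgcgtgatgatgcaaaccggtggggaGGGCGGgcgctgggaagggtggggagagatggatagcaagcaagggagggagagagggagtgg
*Grm8* promoter, chr6:28135179-28135396, minus strand: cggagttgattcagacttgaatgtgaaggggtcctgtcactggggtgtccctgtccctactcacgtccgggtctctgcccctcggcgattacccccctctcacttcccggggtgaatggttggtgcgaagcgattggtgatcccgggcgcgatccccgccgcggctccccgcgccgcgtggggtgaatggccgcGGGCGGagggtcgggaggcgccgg

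The ratio of observed to expected CpG in the 250 bases before the RefSeq start was 0.575 in *Grm2*, 0.330 in *Grm3*, 0.285 in *Grm6*, 0.333 in *Grm7* and 0.999 in *Grm8*, beside a median of 0.374 over 32851 RefSeq promoters. Of the 5 windows that of *Grm8* had the highest ratio, above 94.2% of all promoters. RefSeq gives 2 further starts of *Grm8*, both inside the GENCODE gene, with ratios of 0.473 and 0.169, and in the 5 lists with a *Grm8* TSS peak a peak lay beyond the nearer of them. The SP1 box occurred 3 times in the *Grm2* promoter, 1 time each in those of *Grm3*, *Grm7* and *Grm8*, and not in that of *Grm6*. It was held by 32.7% of all promoters. The letters TGACGTCA (CRE, 1.55% of promoters), CACGTG (E-box, 6.02%) and GCGGGAAA (E2F box, 0.895%), searched on both strands, were in none of the 5 windows. The SP1 and E2F letters can share bases. These matches describe letters in the window and no binding was measured.

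The libraries entered peak calling with 22864189 to 37077725 tags in *Tip60* cKO and 27418740 to 37923809 tags in control and gave 64245 to 135494 and 93575 to 136409 peaks. The fifth *Tip60* cKO library had the fewest tags and peaks. The neuronal genes *Rbfox3*, *Snap25*, *Syt1* and *Tubb3* had a TSS peak in all 10 lists, as had 5 of 6 genes of excitatory hippocampal neurons. Of 3 inhibitory, 4 astrocytic, 5 oligodendrocyte, 5 microglial and 3 endothelial genes only *Mbp* had a peak in all 10 lists. *Gfap* had a peak in 9 lists, *P2ry12* in 1 *Tip60* cKO and 4 control lists, *Sox10* in 4, *Gja1* in 3, *Slc32a1* in 2 and *Gad2* and *Cldn5* in 1 each, and the other 12 genes of these lists had none. The deleted gene itself, listed as *Kat5*, had TSS peaks in each of the 10 lists, and its TSS rank score (defined below) averaged 94.8 ± 5.07 over *Tip60* cKO and 97.6 ± 2.08 over control libraries (SD, n = 5, limma adjusted p = 0.686). A peak of H4K12ac does not check the deletion.

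The receptor genes fell into 2 classes at their annotated 5′ ends. *Grm5*, *Grm2*, *Grm3* and *Grm7* had a TSS peak in all 10 lists, as did 44.0% of the 21938 protein-coding genes. *Grm8* had a TSS peak in 3 *Tip60* cKO and 2 control lists, *Grm6* in 2 control lists and *Grm4* in 1 *Tip60* cKO list. A missing peak means that the region stayed below the threshold of the peak caller at that library's depth, not that acetylation was absent. To compare libraries of unequal depth, the strongest TSS peak of a gene was expressed as its percent rank by fold enrichment among the windows of all annotated genes of the same library (TSS rank score, 0 without a peak). In control libraries the score was 94.8 ± 1.94 for *Grm7*, 91.9 ± 2.05 for *Grm2*, 83.3 ± 3.58 for *Grm5*, 78.9 ± 3.15 for *Grm3*, 28.8 ± 39.5 for *Grm8*, 28.5 ± 39.0 for *Grm6* and 0 for *Grm4* (mean ± SD, n = 5). Among neighbours in this order the control values of *Grm7* and *Grm2* overlapped, as did those of *Grm5* and *Grm3*, and *Grm8* and *Grm6* had a peak in 2 lists each. The lowest *Grm2* value, 89.3, lay above the highest *Grm5* value, 88.4.

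**Figure D1:**
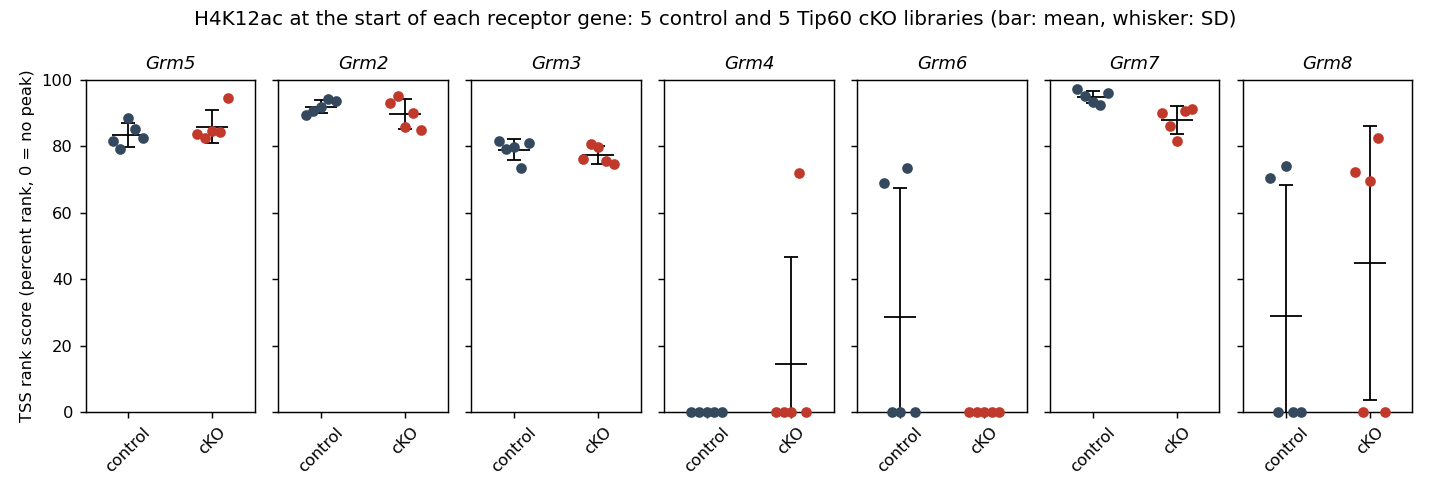
TSS rank score (percent rank among all annotated genes of a library, 0 without a peak) of each receptor gene in 5 control (dark) and 5 *Tip60* cKO (red) libraries, with mean and SD. The points of *Grm7* do not overlap between genotypes (81.5 to 91.3 in *Tip60* cKO, 92.4 to 97.1 in control), while those of the other genes do.

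No receptor gene passed the test for a genotype difference at the TSS. In limma, fitted on all 21672 genes with Benjamini-Hochberg adjustment, 0.235% of genes were called in either direction (51 genes) and 0 of the 6 members tested. *Grm6* passed the filter on the number of lists only through controls. At an unadjusted limma p below 0.05, 6.68% of all genes tested were lower and 5.1% higher in *Tip60* cKO, and of the members *Grm7* was lower and 0 were higher. The exact permutation test of single members gave *Grm7* as well, with every *Tip60* cKO library below every control library, as in 1.62% of all genes tested. The median difference over all genes tested was -0.69, and 55.6% of genes had a lower mean score in *Tip60* cKO.

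*Grm5*, the group I member, had in *Tip60* cKO libraries 1 to 5 TSS peaks with fold enrichments over background of 5.14, 4.63, 5.04, 5.15 and 6.30, and in control libraries of 5.08, 4.67, 6.58, 5.57 and 5.17. The groups overlapped over nearly their whole range. Rank scores averaged 85.9 ± 4.93 for *Tip60* cKO against 83.3 ± 3.58 for control (difference 2.60, SE 2.87, adjusted p = 0.744 by limma; exact p = 0.413). Without the fifth *Tip60* cKO library, which scored 94.6, the difference was 0.42. Peak heights were 20 to 28 overlapping fragments, so that single values rest on few reads. These peaks lie at the start of 4 annotated transcripts, while the start 18.3 kb further in, that of the other 3 transcripts of the gene, had no peak in any list.

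Among the group II genes, *Grm2*, a presynaptic autoreceptor gene, had fold enrichments of 6.78, 6.61, 5.26, 6.04 and 4.80 in *Tip60* cKO libraries 1 to 5 and of 6.56, 6.73, 7.32, 7.27 and 7.11 in controls. The *Tip60* cKO values were mostly the lower ones, but libraries 1 and 2 lay within the control range. The mean was 5.90 ± 0.857 in *Tip60* cKO against 7.0 ± 0.336 in control on the fold enrichment scale (unadjusted exact permutation p = 0.0397), whereas the rank score of 89.7 ± 4.51 against 91.9 ± 2.05 did not pass the test (difference -2.19, SE 2.46, limma adjusted p = 0.749; exact p = 0.341). That difference was -0.95 without *Tip60* cKO library 5 and -3.54 without library 2. The fold enrichment scale was lower in *Tip60* cKO for most genes: over the 13004 genes with a TSS peak in all 10 lists the median ratio of *Tip60* cKO to control was 0.895 and 77.1% of ratios lay below 1. The ratio of *Grm2* was 0.843, and 33.5% of these genes had a lower one.

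*Grm3* had fold enrichments of 4.11, 4.41, 4.38, 4.03 and 3.60 in *Tip60* cKO and of 5.08, 4.67, 4.99, 3.83 and 4.96 in control libraries. Of the controls, 4 lay above every *Tip60* cKO library and library 4 lay below 4 of them. The rank scores were 77.4 ± 2.63 and 78.9 ± 3.15 (difference -1.51, SE 2.16, adjusted p = 0.805; exact p = 0.452), and the ratio of the mean fold enrichments, 0.872, was close to the median of all genes.

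*Grm7*, the presynaptic group III receptor gene with the highest score in controls, was the member in which the genotypes separated at the TSS. Its strongest TSS peak had fold enrichments of 6.16, 5.07, 4.60, 6.05 and 5.70 in *Tip60* cKO libraries 1 to 5 and of 8.89, 7.92, 7.71, 6.87 and 7.74 in control libraries 1 to 5. Every *Tip60* cKO library lay below every control library. The pileup at the summit was 29, 22, 20, 28 and 18 fragments in *Tip60* cKO and 41, 38, 33, 26 and 38 in control. The mean fold enrichment was 5.52 ± 0.665 in *Tip60* cKO and 7.83 ± 0.721 in control (exact p = 0.00794, the smallest that 5 against 5 libraries allow). The ratio of 0.705 was lower in 4.49% of the 13004 genes with a TSS peak in all lists, and 5.43% of all genes tested had no overlap in this direction on that scale.

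On the rank score *Grm7* also did not overlap between genotypes, with 89.9, 86.0, 81.5, 90.6 and 91.3 in *Tip60* cKO and 97.1, 95.2, 93.3, 92.4 and 96.1 in control. Of all genes tested, 1.62% had every *Tip60* cKO library below every control library on this score. The mean was 87.9 ± 4.11 against 94.8 ± 1.94 (difference -6.94, SE 2.31; limma p = 0.0146, adjusted p = 0.314; exact p = 0.00794). The adjusted p does not pass the threshold, and 26.1% of all genes tested had a lower difference. Peaks covered 41.4 ± 8.65% of the 4 kb window in *Tip60* cKO and 52.8 ± 5.10% in control (exact p = 0.0317, limma adjusted p = 0.142, the groups overlap). On this coverage scale 22.3% of all genes tested were lower in *Tip60* cKO at an unadjusted limma p below 0.05. Within lane 7 of the file names (3 libraries per genotype) the score difference was -9.40, and within lane 8 (2 per genotype) it was -3.27. Leaving out single libraries gave differences between -7.80 and -5.36, with -7.80 without the shallowest *Tip60* cKO library. The background at these peaks was 1.0 to 1.09 times the genome level in all 10 libraries.

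**Figure D2:**
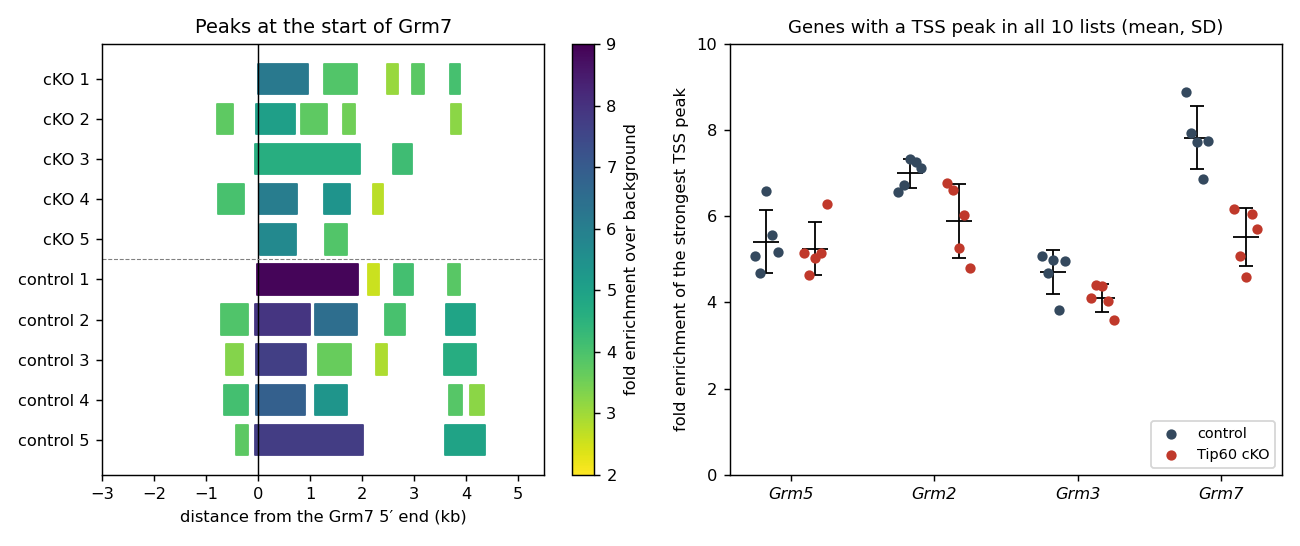
Left, peaks from 3 kb before to 5.5 kb after the *Grm7* 5′ end (horizontal axis, kb) in each library, coloured by fold enrichment. Right, fold enrichment of the strongest TSS peak for the 4 genes with a peak in all 10 lists (points: libraries, with mean and SD); *Grm7* lay at 4.60 to 6.16 in *Tip60* cKO and at 6.87 to 8.89 in control.

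The peak of *Grm7* began at the start site and ran into coding exon sequence. The merged region, chr6:110645512-110647601, starts at the base after the promoter window shown above, and a further region before the start, chr6:110644795-110645386, had a peak in 2 *Tip60* cKO and 4 control lists. In the fit over merged regions the region at the start scored 93.7 ± 3.58 and 98.1 ± 0.751 (difference -4.45, SE 4.97, limma adjusted p = 0.764; exact p = 0.00794). The same bases carry the antisense gene *Gm20387*, from which H4K12ac cannot be told apart. Downstream, at 3.97 kb from the start in an intron, chr6:110649155-110649945 had fold enrichments of 4.06 and 3.22 in *Tip60* cKO libraries 1 and 2 and no peak in the other 3, against 3.81, 4.92, 4.63, 3.86 and 4.94 in the controls. Its score was 28.4 ± 39.4 against 83.2 ± 6.69 (limma p = 0.00848, adjusted p = 0.249; exact p = 0.0238). The internal start of 2 transcripts, 850 kb into the gene, had no peak in any list.

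The other group III genes had little H4K12ac at the annotated 5′ end. *Grm4*, a presynaptic receptor gene, had a peak at its 5′ end in *Tip60* cKO library 4 only (fold enrichment 3.58) and was not tested there. Further in, the starts of 3 transcripts, the first of them at 7.68 kb, lay in a merged region with a peak in all 10 lists. The strongest peak of each list there began downstream of the first of these starts. It had fold enrichments of 5.34, 5.29, 6.14, 4.92 and 4.5 in *Tip60* cKO and of 5.29, 5.28, 6.35, 3.83 and 5.16 in control. The genotypes overlapped fully, and the region that holds these starts (chr17:27511668-27514331) scored 92.4 ± 2.85 against 89.0 ± 7.0 (limma adjusted p = 0.885). When the strongest peak over all transcript starts of a gene was scored in place of the 5′ end, no member was called either.

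*Grm8* had TSS peaks in *Tip60* cKO libraries 1, 3 and 4 (3.60, 3.07 and 4.92) and in control libraries 1 and 3 (3.39 and 4.08). The scores of 44.9 ± 41.2 and 28.8 ± 39.5 rest on the presence of a peak (limma adjusted p = 0.807, exact p = 0.603). Their difference of 16.0 lay between 6.61 and 27.3 with single libraries left out. *Grm6*, the retinal receptor gene, had no peak in *Tip60* cKO lists and weak ones in control libraries 1 (3.18) and 4 (3.83), in the coding part of its start, where the antisense gene *Gm12660* overlaps. As it was kept by the filter only through the controls, no test of it is given. Across the 10 libraries the score most like that of *Grm6* was the score of *Gm12660* (Pearson's r = 1.0), which reads the same peak, and the score most like that of *Grm8* was the score of *Grin2c* (r = 1.0), and both correlations describe in which lists a peak was found.

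**Figure D3:**
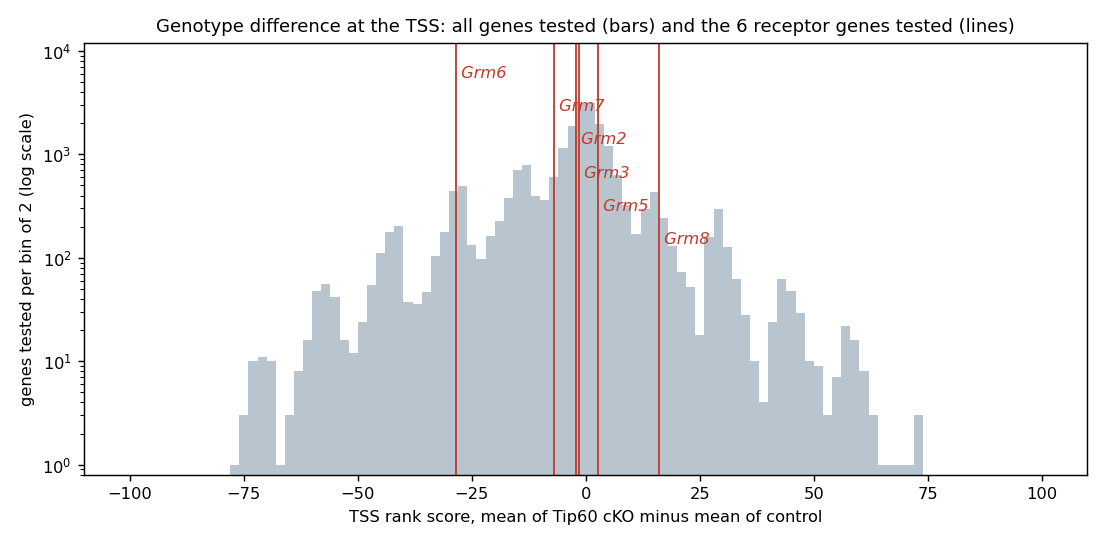
Number of genes (log scale) by the difference in TSS rank score between *Tip60* cKO and control for the 21672 genes tested, in bins of 2, with the 6 receptor genes tested as lines. *Grm6* at -28.5 and *Grm8* at 16.0 lie in side humps, where some lists hold no peak (score 0), and *Grm7* lies at -6.94.

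The gene bodies differed far more among the members than between the genotypes. *Grm2*, of 13.0 kb, was covered by peaks over 28.8 ± 4.57% of its body in controls, above 94.7% of the 12823 genes tested. *Grm4* followed with 2.31 ± 0.583%, *Grm7* with 1.44 ± 0.361%, *Grm5* with 1.3 ± 0.298%, *Grm3* with 0.230 ± 0.149% and *Grm8* with 0.0134 ± 0.0193%, and *Grm6* had no gene body peak in any list. Among neighbours in this order the control values of *Grm2* and *Grm4* and those of *Grm5* and *Grm3* did not overlap, whereas the others did. The median over the genes tested was 2.84%. *Grm7* and *Grm8* are of like length, 922 and 860 kb, and belong to the same group, yet the body of *Grm7* held 39.8 ± 8.76 peaks per control library and that of *Grm8* 0.400 ± 0.548, with no overlap between the genes.

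In *Tip60* cKO libraries the coverage was 24.2 ± 9.52% in *Grm2*, 2.25 ± 0.541% in *Grm4*, 1.08 ± 0.410% in *Grm7*, 1.22 ± 0.598% in *Grm5*, 0.150 ± 0.10% in *Grm3* and 0.0146 ± 0.0220% in *Grm8*. No member passed the test in limma (adjusted p between 0.558 and 0.999 for the 6 tested). At an unadjusted limma p below 0.05, 14.9% of all genes tested were lower and 0.866% higher, and 0 of the 6 members. Over all genes 0.351% were called, all of them lower in *Tip60* cKO, but the count was 0 without the fifth *Tip60* cKO or the fifth control library, 250 without the fourth control library, and 0 with the replicate numbers as a block. The fifth *Tip60* cKO library, with the fewest tags, had the lowest value of its genotype in *Grm5* (0.526%), *Grm2* (11.4%), *Grm7* (0.477%), *Grm4* (1.62%) and *Grm3* (0). Without it the difference went from -4.60 to -1.39 percentage points in *Grm2*, from -0.362 to -0.212 in *Grm7* and from -0.0805 to -0.0431 in *Grm3*.

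**Figure D4:**
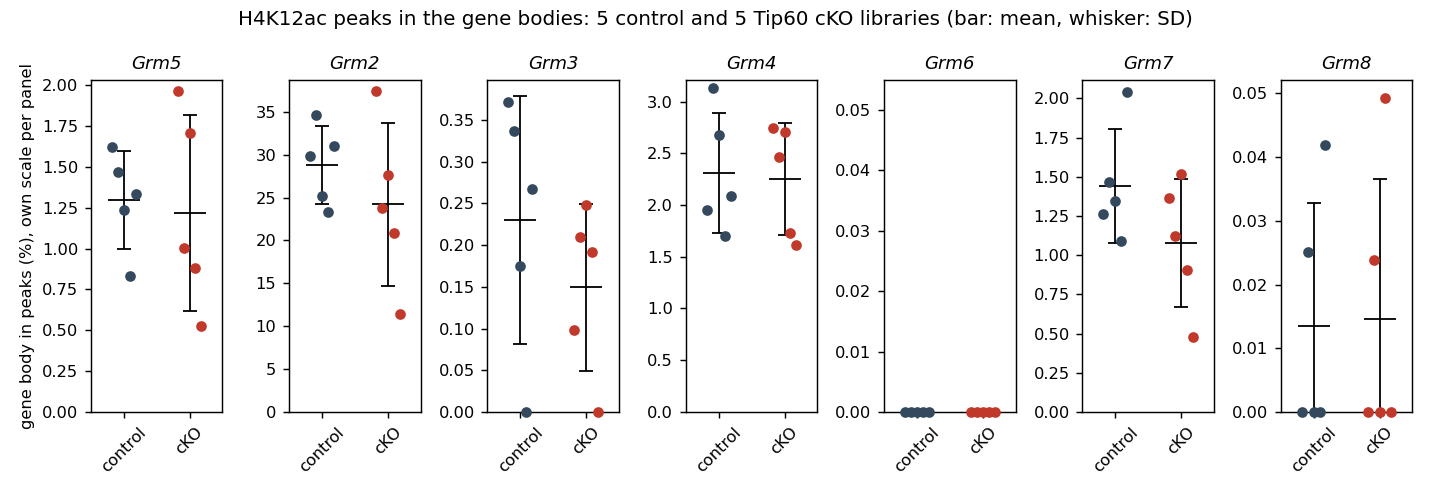
Percent of the gene body covered by H4K12ac peaks in 5 control (dark) and 5 *Tip60* cKO (red) libraries, with mean and SD and an own vertical scale for each gene. The genotypes overlap in every panel; the body of *Grm2* reached 37.4%, whereas that of *Grm8* stayed at or below 0.0493%.

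The number of gene body peaks was 20.4 ± 10.4 in *Tip60* cKO and 20.4 ± 5.13 in control for *Grm5* and 32.8 ± 11.1 and 39.8 ± 8.76 for *Grm7* (exact p = 1.0 and 0.365). In *Grm4* it was 5, 9, 5, 4 and 3 in *Tip60* cKO and 2, 4, 4, 3 and 5 in control libraries, which overlap. In the gene body rank score, the strongest body peak ranked among genes, *Grm2* scored 85.4 ± 3.45 in *Tip60* cKO and 91.1 ± 2.39 in control, with overlap (unadjusted exact p = 0.0159, limma adjusted p = 0.433). Divided by the length of each list, the peak number of *Grm4* was 4.93 ± 1.73 peaks per 100000 in *Tip60* cKO and 2.99 ± 0.813 in control, without overlap (exact p = 0.00794). Of all genes tested 1.15% had every *Tip60* cKO library above every control library on this scale. In all, 49 exact tests were made over 7 members and 7 measures, without adjustment. Those of *Grm6*, with peaks in 2 lists at most, and of the 5′ end of *Grm4*, with a peak in 1 list, could not fall below 0.05. The exact p-values are given as single values, and nothing is read from their number.

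Merging the peaks of the 10 lists gave 297 regions at or in the members, of which 130 had a peak in at least 2 lists (consensus regions): 72 in *Grm7*, 42 in *Grm5*, 5 each in *Grm2* and *Grm4*, 3 in *Grm3*, 2 in *Grm8* and 1 in *Grm6*. Of these 112 were intronic and 10 had a peak in all 10 lists. Per 100 kb of gene, *Grm2* held 30.8, *Grm7* 7.60, *Grm5* 7.26, *Grm4* 5.05 and *Grm3* 0.835 consensus regions beyond the TSS, and *Grm6* and *Grm8* held none. Of the 40 such regions of *Grm5* 3 lay in the first 110 kb. Most were seen in few lists, with a median of 2 lists in both *Grm5* and *Grm7*. The densest stretch of 20 kb held 7 consensus regions in *Grm5*, from 385 to 394 kb after the start, with 2.60 ± 2.30 peaks in *Tip60* cKO and 5.80 ± 1.92 in control libraries (range 0 to 6 and 3 to 8), and 9 in *Grm7*, from 406 to 422 kb, with 2.60 ± 1.95 and 2.60 ± 1.67 peaks.

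**Figure D5:**
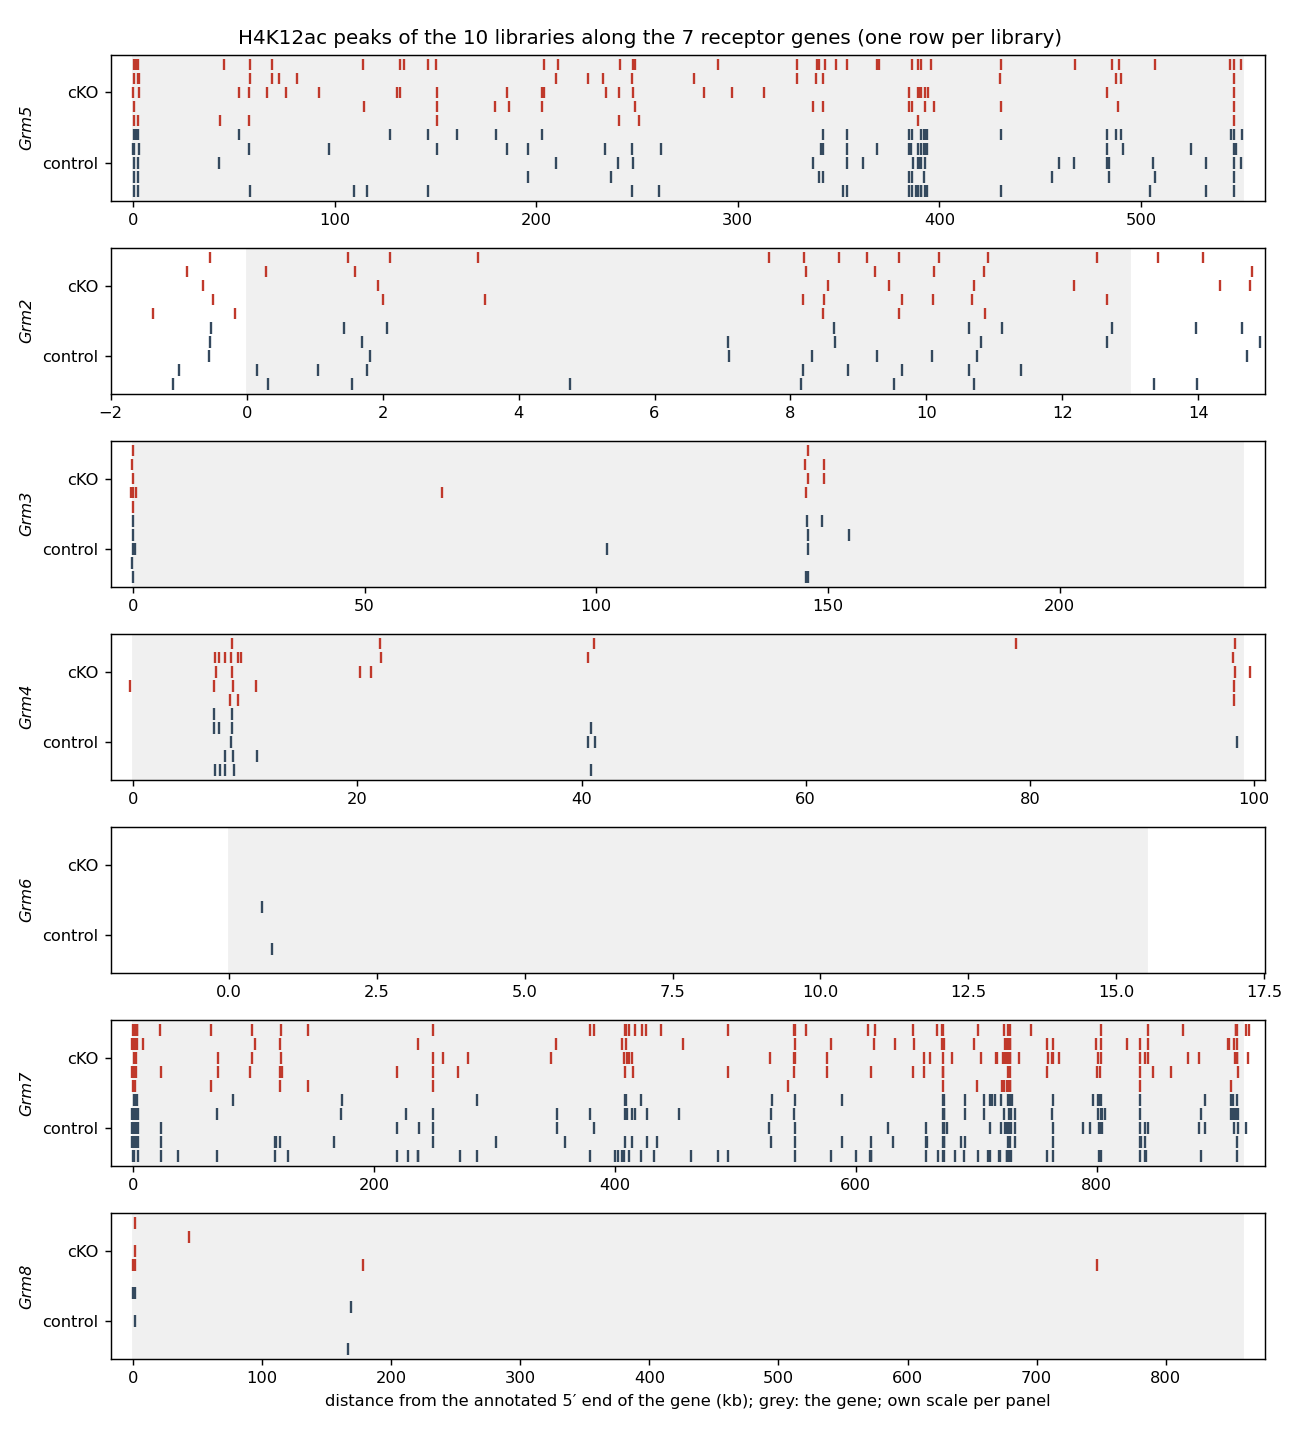
Position of every H4K12ac peak along the 7 receptor genes (horizontal axis, distance from the 5′ end in kb, own scale for each gene; grey, the gene), with a row for each of 5 *Tip60* cKO (red) and 5 control (dark) libraries. *Grm7* and *Grm5* carry peaks in most stretches of their length, *Grm4* has peaks of all 10 libraries near 8 kb and of 1 library at its 5′ end, with others further in up to its 3′ end, and *Grm8* holds few.

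No consensus region of the members was called. In limma over 144781 consensus regions 0.562% were called in either direction, and 0 of 130 member regions. At an unadjusted p below 0.05, 12 member regions were lower and 5 higher in *Tip60* cKO, beside 8.34% and 3.68% of all regions, and the smallest adjusted p was 0.147. By the exact permutation test, unadjusted, 7 of 130 member regions were below 0.05, beside 8.45% of all regions. These counts include regions that passed the filter of 2 lists only through the genotype in which they are high, among them 3 of the 7 (*Grm4* at 98.3 kb and *Grm5* at 151 and 354 kb), and nothing is read from them. Of the differences 68 lay below and 62 above 0, with a median of -0.81. This is 52.3% below 0, beside 56.9% of all regions, whose median was -2.21. Only 1 member region had a peak in at least 4 more *Tip60* cKO than control lists, as 0.497% of all regions had, and none had the opposite.

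For 4 of the regions a window of 151 bases on the highest summit is shown, since they hold the most constant peak of a gene body, the smallest limma p or, in *Grm4*, the widest gap between the genotypes in the number of lists. They are read from GRCm38.p6 on the plus strand, with every CpG in capitals.
*Grm5* coding exon at 546 kb, chr7:88130339-88130489: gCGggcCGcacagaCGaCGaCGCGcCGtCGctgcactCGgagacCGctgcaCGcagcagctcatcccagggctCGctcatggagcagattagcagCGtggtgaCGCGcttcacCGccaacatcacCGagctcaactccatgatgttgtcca
*Grm7* intron at 727 kb, chr6:111372738-111372888: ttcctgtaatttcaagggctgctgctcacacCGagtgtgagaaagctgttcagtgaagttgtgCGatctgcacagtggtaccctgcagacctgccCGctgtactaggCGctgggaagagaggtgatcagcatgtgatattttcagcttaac
*Grm7* intron at 763 kb, chr6:111409001-111409151: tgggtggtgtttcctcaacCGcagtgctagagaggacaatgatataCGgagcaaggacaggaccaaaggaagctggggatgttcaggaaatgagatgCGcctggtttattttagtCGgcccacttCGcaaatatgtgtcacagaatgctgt
*Grm4* intron at 98.3 kb, chr17:27423019-27423169: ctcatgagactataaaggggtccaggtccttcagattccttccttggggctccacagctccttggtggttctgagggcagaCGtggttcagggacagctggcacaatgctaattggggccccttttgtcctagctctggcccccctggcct

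The strongest peak of *Grm5* was not at its start but 546 kb downstream, in coding sequence near the 3′ end (chr7:88129515-88131497). It had fold enrichments of 6.45, 7.28, 9.20, 9.62 and 8.69 in *Tip60* cKO and of 8.26, 6.68, 7.94, 8.93 and 8.54 in control libraries, and in each of the 10 libraries it exceeded the TSS peak of *Grm5*. The genotypes overlapped (rank score 99.0 ± 1.36 against 98.3 ± 1.3, limma adjusted p = 1.0; exact p = 0.421). The window holds 17 CpGs, with a ratio of observed to expected CpG of 1.11 and 64.2% GC, beside medians of 0.218 and 53.0% over the windows of all consensus regions. The background there was 1.0 to 1.16 times the genome level.

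Away from the 5′ end of every annotated gene, 120 member regions had a median ratio of 0.113 and a median GC content of 48.3%, beside 0.193 and 52.3% over 117253 such regions in all. A ratio above 0.6 was found in 2.5% and 4.15% of them. In *Grm5*, 32.5% of 40 such regions lay for the larger part in soft-masked repeats, in *Grm7* 8.7% of 69, and among all such regions 4.14%.

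In *Grm7* the intronic region at 727 kb (chr6:111370723-111373483) had a peak in all 10 lists, with fold enrichments of 6.00, 5.17, 4.95, 5.49 and 4.08 in *Tip60* cKO and of 4.89, 5.07, 5.18, 4.16 and 5.16 in control. The genotypes overlapped (limma adjusted p = 0.907), and so they did in the region at 673 kb (chr6:111317582-111318794, all 10 lists, adjusted p = 0.746). In contrast, the region at 763 kb (chr6:111408567-111409445) had peaks of 2.66 and 2.54 in *Tip60* cKO libraries 2 and 3 only and of 3.60, 3.86, 4.08, 4.34 and 3.25 in the controls. Every control value lay above every *Tip60* cKO value. The scores were 20.1 ± 27.6 against 73.4 ± 10.5 (limma p = 0.00196, adjusted p = 0.147, exact p = 0.00794). An exact p below 0.05 in either direction was found in 8.45% of all regions, and how many of them lacked overlap was not counted. The adjusted p was 0.0303 with peaks of q below 0.01 and 0.0356 with a filter of 5 lists, but under both the region passes the filter only through its 5 control peaks, so these values are no support for a difference. It was between 0.0684 and 0.453 under the other alternatives, the lowest of them without *Tip60* cKO library 2, where the same limit holds. The background there reached 1.82 times the genome level.

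The *Grm4* intron region near the 3′ end (chr17:27422789-27423380) went in the other direction. It had fold enrichments of 2.77, 3.01, 3.00, 3.49 and 4.40 in the 5 *Tip60* cKO libraries and a peak in control library 3 only (3.09). The scores were 62.7 ± 16.2 and 10.9 ± 24.5. The region passed the filter of 2 lists only through the *Tip60* cKO libraries, where it is high, so the values are a description and no test of it is given. With all lists cut to equal length the difference went from 51.7 to 26.2.

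In *Grm5* an intron region at 151 kb (chr7:87734589-87735138) had a peak in 4 *Tip60* cKO lists and 1 control list (62.2 ± 36.4 against 9.98 ± 22.3), and one at 393 kb (chr7:87976581-87977415) in 2 and 5 lists (26.8 ± 36.9 against 72.6 ± 9.64). The first of these also passed the filter only through *Tip60* cKO libraries and is given as a description. The region at 393 kb had a limma adjusted p of 0.351 and an exact p of 0.0476, beside 8.45% of all regions at an exact p below 0.05. Near the start of *Grm5*, the region that holds the TSS (chr7:87584070-87585002) scored 92.4 ± 3.19 against 91.4 ± 3.05 (limma adjusted p = 1.0). At 2.74 kb, in a non-coding exon (chr7:87586459-87587351), the peak was found in 4 *Tip60* cKO and 5 control lists, with 56.3 ± 31.8 against 75.1 ± 10.3 (limma adjusted p = 0.552; exact p = 0.262). That difference went from -18.7 to -4.73 without *Tip60* cKO library 4, which lacks the peak, and to -0.85 with peaks ranked by pileup. The remaining regions named were not called. *Grm2* had 3 regions with a peak in all 10 lists, at the start (chr9:106653681-106658057), at its internal start (chr9:106646212-106649120) and in the coding exons beyond it (chr9:106644579-106646122), with limma adjusted p of 0.961, 0.844 and 1.0. The region at the start of *Grm3* (chr5:9724456-9725741) scored 82.3 ± 4.01 against 86.4 ± 5.43 (limma adjusted p = 0.828). *Grm3* had an intronic region 145 kb after the start (chr5:9579187-9580178) with a peak in 4 lists of each genotype. Another at 149 kb (chr5:9575907-9576232) had a peak in 2 *Tip60* cKO lists, through which alone it passed the filter. Just before it, control library 1 had a separate peak from 148640 to 148845 bp after the start.

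The genes through which the receptors signal were read from the same TSS fit. Of 16 genes of the Gq arm of group I 13 had a TSS peak in all 10 lists, and of 16 genes of the Gi/o arm of groups II and III 14 did. None was called in either direction, beside 0.235% of all genes, and the median differences of -1.05 and -0.98 lay near the -0.69 of all genes. *Rgs4*, which shortens Gq and Gi signals, scored 71.8 ± 3.93 in *Tip60* cKO and 80.4 ± 4.68 in control (limma adjusted p = 0.317). *Homer3*, a scaffold that binds group I receptors, scored 87.2 ± 3.87 and 93.2 ± 1.55 (limma adjusted p = 0.347). In the Gi/o arm *Gnai3*, a Gi alpha subunit, scored 79.1 ± 6.49 and 88.2 ± 2.81 (limma adjusted p = 0.347), and *Gnb5*, a G beta subunit, 28.8 ± 39.6 and 72.0 ± 4.41 with a peak in 2 and 5 lists (limma adjusted p = 0.348). At an unadjusted limma p below 0.05, 2 of 16 genes of each arm were lower, beside 6.68% of all genes, and 1 of 16 genes of the Gq arm was higher, beside 5.1% of all genes. This gene, *Plcb4*, a phospholipase C named here after its values were seen, scored 74.7 ± 3.48 against 29.7 ± 40.7 (a peak in 5 and 2 lists, limma adjusted p = 0.347). *Elfn1*, a postsynaptic partner of *Grm7* also named after its values were seen, scored 79.3 ± 4.73 against 56.4 ± 31.6, with every *Tip60* cKO library above every control library (limma adjusted p = 0.51; exact p = 0.00794), as in 1.93% of all genes. *Kcnj9*, a GIRK channel subunit seen likewise, scored 85.5 ± 4.02 against 80.0 ± 3.41, with overlap (limma adjusted p = 0.451; exact p = 0.0317).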

How the data were processed

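H4K12ac ChIP-Seq libraries of 5 *Tip60* cKO and 5 control samples were read from their peak lists, and groups were taken from the sample labels. The authors aligned reads to mm10 (GRCm38) with STAR, removed duplicates with SAMtools, and called peaks of each library against the pooled input of its genotype with MACS 2.1.0.20140616 at q below 0.1. The deposited lists give the pileup (signal, fragments over the summit), the fold enrichment (ratio of pileup to local background) and −log10 p-values and q-values of each peak. They hold no read counts, and ranks and ratios do not show a change of the whole genome. Totals of 22864189 to 37923809 tags per library limit the precision, and few fragments stand behind a peak.

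Peaks were assigned to GENCODE genes within 2 kb of the 5′ end or in the remaining body of genes longer than 4 kb. Peaks were merged over the lists, and regions found in 2 or more lists were kept (consensus regions). Rank scores, coverage and regions were compared by genotype with limma 3.58.1 in R 4.3.3, adjusted by Benjamini-Hochberg over all features (threshold 0.05), and single values by a two-sided exact permutation test of 252 assignments. The scripts were tested on simulated data. Alternatives were other peak thresholds, equal peak numbers, ranks by pileup, other windows and starts, other filters and priors, lane or replicate number as a term, and each library left out. The members and lists were chosen with earlier results of these data known. All members were named, with the regions at their start, the 2 others in most lists, those with a peak in at least 4 more lists of 1 genotype and the 5 with the smallest p. Of the partner lists, called genes and the 2 with the smallest p per arm were named, and *Plcb4*, *Elfn1* and *Kcnj9* were added after their values were seen.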

Additional observations from a re-analysis of the deposited data

Results flagged for a closer look

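Some single libraries stood apart from the other 4 of their group by Dixon's test (ratio of gap to range above 0.71). The test flags about 1 in 20 groups of normally distributed values by chance, a rate that does not hold for counts or for scores with zeros. Of 60 groups of values tested, 7 held such a library, and as many groups are of this kind, this number cannot be set against the rate. The TSS rank score of *Grm5* was 94.6 in the fifth *Tip60* cKO library and 82.5 to 84.6 in the others. *Grm3* had 0 gene body peaks in the fourth control library and 2 in each other control. *Grm4* had a peak at its 5′ end in the fourth *Tip60* cKO library alone, with a rank score of 71.9, a coverage of 5.45% of the window and a fold enrichment of 3.58, which are 3 readings of the same peak. *Grm7* had 55 gene body peaks in the fifth control library, the control with the most tags, and 33 to 38 in the others. Peaks covered 22.4% of the *Grm8* window in the first control library and 0 to 5.02% in the others. The causes were not tested.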

How the results depend on the processing

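At the TSS 0 members were called by limma under the alternatives run, and the exact test, unadjusted, called 1, *Grm7*. Every *Tip60* cKO library lay below every control library in 1.62% of all genes tested, as in *Grm7*. The difference of *Grm7* lay between -7.80 and -5.36 on the rank scale (adjusted p 0.142 to 0.537 over all alternatives). The number of genes called, 51, was 86 with a mean-dependent robust prior (26 lower, 60 higher, against 34 and 17), 339 by TSS coverage (331 lower, 8 higher), 58 with equal peak numbers (30 lower, 28 higher) and 57 to 101 with single libraries left out (101 without *Tip60* cKO library 1, 84 without 2, 85 without 4, 83 without 5). By coverage *Grm5* reversed to -0.35. With libraries left out *Grm5* lay between 0.421 and 3.87, *Grm2* between -3.54 and -0.953, *Grm3* between -2.86 and -0.858 and *Grm8* between 6.61 and 27.3.

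In gene bodies 0 members were called throughout. The number of genes called, 45, was 9 with the robust prior, 7 without the filter, 24 by the gene body rank score, 112 with equal peak numbers and 0 to 250 with single libraries left out (29 or fewer except without control library 4). By the body rank score *Grm5* (0.99), *Grm3* (0.55), *Grm4* (3.26) and *Grm7* (3.39) reversed, as did *Grm3* (0.0261) with equal peak numbers. With libraries left out *Grm2* lay between -7.91 and -1.39, *Grm7* between -0.473 and -0.212, *Grm3* between -0.138 and -0.0431, *Grm4* between -0.211 and 0.147, *Grm5* between -0.268 and 0.0906, and *Grm8* between -0.00745 and 0.00834 percentage points.

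The number of regions called, 814, was 318 with the robust prior, 1598 among regions in at least 5 lists, and 966 to 1430 with libraries left out (1430 without control library 4). Of member regions 1 was called in at least 5 lists and 1 with q below 0.01, both times the *Grm7* region at 763 kb, which then passes the filter only through control. With libraries left out 0 to 1 were called (1 each without *Tip60* cKO library 2 and control library 3, both in regions that pass only through *Tip60* cKO). The exact test, unadjusted, called 7, of which 3 pass the filter only through 1 genotype, beside 8.45% of all regions. With libraries left out the *Grm5* regions at 1.41 kb (-3.43 to 2.13) and 0.37 kb (-0.339 to 2.1) reversed. The causes were not tested.

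Correlations of same-numbered samples were small (-0.0375 to 0.0552), while the best partner had the same number for replicates 1, 2 and 4. Whether the numbers pair the samples cannot be told from so few values. With the replicate block 35 genes were called at the TSS, 0 in gene bodies (1472 lower and 84 higher at an unadjusted limma p below 0.05) and 254 regions, and 0 members in each.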
